A study of Homo sapiens with 12 samples.

Results

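Mitochondrial ribosomal proteins are the subunits of the mitoribosome, the ribosome inside mitochondria that translates the respiratory chain subunits encoded by mitochondrial DNA. Their genes lie in the nucleus, and the proteins are made in the cytosol, imported and assembled with mitochondrial ribosomal RNA into a small subunit, which reads the messenger RNA, and a large subunit, which joins the amino acids. Because the proteins are built into 1 particle, their genes are often looked at as a group. The genes were taken by name: symbols that begin with MRPL (large subunit) or MRPS (small subunit) followed by a number, without pseudogenes and antisense genes. Of 77 human genes named this way in RefSeq, 75 had a probe set with a single gene symbol and were measured, 48 of the large and 27 of the small subunit, among 13130 genes tested. Each gene's probe set was selected on its mean signal over the 12 arrays, the highest being used, and genes were kept if they reached log2 4 on 3 or more arrays, so levels are given as description. MRPL53 and MRPS24 have only probe sets that carry several symbols and were not used.

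The samples were 12 Affymetrix arrays of Sk-hep1, an established human cell line from the ascites of a liver adenocarcinoma, labelled as endothelial. The groups were high-fat medium (HFM) for 24 hours, growth medium (GM) for 24 hours, HFM for 12 hours and GM for 12 hours, with 3 arrays each. All cells had been grown in DMEM with fetal bovine serum, antibiotics and glutamine before treatment. HFM was built on DMEM/F12 and GM on DMEM, so basal medium and fat content cannot be told apart, and which fat was added is not stated in the sources used here. Values are log2 signals. A difference of 1 is a 2-fold difference, and changes are HFM minus GM or 24 hours minus 12 hours. A gene was called when its limma p, adjusted with Benjamini-Hochberg over all 13130 genes, was below 0.05. No statement was found that the replicates came from separate cultures, so these p-values describe the spread between arrays, which may be technical. In RNA from whole cultures, fewer cells expressing a gene and less of its RNA per cell cannot be told apart.

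The median signal over all probe sets lay between 4.05 and 4.09 on the 12 arrays. Over tested genes the median was 7.08 to 7.09 on the HFM arrays at 24 hours, and 7.24 to 7.38 on the other arrays. Besides this, 2 features of the arrays bear on every comparison. Replicate 1 of HFM at 12 hours stood apart, with a mean correlation of 0.992 with the other 2 arrays of its group, where each of the 11 other arrays had at least 0.995 with its own group. It also shared with the 3 GM arrays at 12 hours a higher signal of the spiked hybridisation controls than the other 8 arrays had. At 24 hours the log2 signal of ACTB read at its 3' end exceeded that at its 5' end, which serves as a control of RNA integrity, by 1.58 ± 0.06 in HFM and 1.07 ± 0.05 in GM (SD, n = 3 each). At 12 hours this value was 0.84 ± 0.13 in HFM and 0.89 ± 0.03 in GM. Of 12 endothelial markers, 6 reached log2 4 on at least 3 arrays, while CDH5, VWF, KDR, TEK, TIE1 and CLDN5 were below 4 on all 12. The summed signal of these 12 markers ranged over 45.1 to 46.97 in HFM and 47.4 to 47.7 in GM at 24 hours, and over 46.7 to 47.04 in HFM and 51.5 to 52.0 in GM at 12 hours. Of 9 hepatocyte markers, 4 (TTR, SERPINA1, CYP3A4 and TF) reached log2 4 on at least 3 arrays, while ALB, APOA1, APOB, FGA and FGB were below it on all 12. Of 5 epithelial markers, KRT8, KRT18 and KRT19 reached it on all 12, with group means from 10.7 to 13.7. EPCAM and CDH1 were below it on all 12. Of 5 mesenchymal markers, VIM, COL1A1, FN1 and SPARC reached it on all 12 arrays and COL1A2 on 1. Group means were 13.5 to 13.6 for VIM and 12.3 to 12.8 for SPARC. Of 4 leukocyte markers, CD14 and CD79A reached log2 4 on at least 3 arrays, CD3E on 2 and PTPRC on none. The summed signal of the hepatocyte markers was 34.1 to 34.9 in HFM and 33.5 to 33.8 in GM at 24 hours, and 33.7 to 34.5 in HFM and 35.1 to 35.4 in GM at 12 hours. That of the leukocyte markers was 15.7 to 16.3 in HFM and 15.9 to 16.4 in GM at 24 hours, and 16.2 to 16.6 in HFM and 17.8 to 18.4 in GM at 12 hours. The part of these features in the comparisons below was not tested unless a value without them is given.

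Promoters of several of the genes are shown because the nuclear factors NRF1, GABP (an ETS factor) and YY1 are known regulators of mitochondrial protein genes. Of the 75 genes, 67 had a promoter in RefSeq (GRCh38.p14), and the 250 bases upstream of the start were searched on both strands. Capitals mark the ETS motif CCGGAAG or the YY1 motif AAGATGGC, which reads GCCATCTT on the other strand. All are written 5′ to 3′ on the strand of the gene and end at the base before its start. MRPS12 had the largest fall at 24 hours and is shown with 250 bases. The others are the 2 deepest falls of each subunit at 24 hours among genes with an ETS match in the last 120 bases, which are shown. MRPL27 and MRPL58 each have 2 ETS matches in the 250 bases searched, and for MRPL58 only 1 of them lies in the bases shown.
MRPS12, chr19:38930694-38930943, plus strand: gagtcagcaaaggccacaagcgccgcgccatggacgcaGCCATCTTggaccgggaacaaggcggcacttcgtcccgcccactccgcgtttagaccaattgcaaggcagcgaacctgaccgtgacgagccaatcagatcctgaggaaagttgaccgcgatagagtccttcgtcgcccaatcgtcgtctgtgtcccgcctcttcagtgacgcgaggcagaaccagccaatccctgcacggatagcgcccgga
MRPL27, chr17:50373185-50373304, minus strand: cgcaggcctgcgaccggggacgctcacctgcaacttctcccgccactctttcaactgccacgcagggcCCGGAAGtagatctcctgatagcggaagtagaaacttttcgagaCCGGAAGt
MRPL58, chr17:75012550-75012669, plus strand: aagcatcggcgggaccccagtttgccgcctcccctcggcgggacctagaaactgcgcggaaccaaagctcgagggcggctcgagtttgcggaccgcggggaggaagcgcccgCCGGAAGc
MRPS18A, chr6:43687792-43687911, minus strand: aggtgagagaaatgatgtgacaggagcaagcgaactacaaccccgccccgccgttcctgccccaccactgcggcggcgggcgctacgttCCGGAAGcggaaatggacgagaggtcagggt
MRPS31, chr13:40771191-40771310, minus strand: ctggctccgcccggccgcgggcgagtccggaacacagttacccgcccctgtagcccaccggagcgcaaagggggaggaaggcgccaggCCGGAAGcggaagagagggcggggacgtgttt

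The ETS motif was in 22 of the 67 promoters (32.8%), against 15.5% of 10590 promoters of tested genes and 8.82% of all 27305 promoters. Among these genes it was in 30.2% of the 53 called lower in HFM at 24 hours and in 42.9% of the 14 not called. The YY1 motif was in 5 promoters (7.46%), those of MRPL32, MRPL36, MRPL47, MRPL52 and MRPS12, against 1.78% of promoters of tested genes. The longer palindromic NRF1 motif was in 1, that of MRPL17 (1.49%, against 1.94%). The SP1 motif GGGCGG was in 55.2% against 65.7%, and the E-box CACGTG in 8.96% against 8.76%. These are matches of letters and not measured binding sites.

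At 24 hours, HFM cells had less mRNA of most mitoribosomal proteins than GM cells. Of the 75 genes 60 fell (80%), 0 rose (limma, 1 at an unadjusted p under 0.05) and 15 were not called, where 37.5% of all genes tested were called lower and 20.6% higher. The median change of the 75 was -0.37, against -0.08 over all genes. The 75 also had brighter probe sets, with a median of mean signals of 9.84, against 7.23 over all genes. The part of signal level in the shares called was not tested. The falls came in both subunits, 39 of 48 in the large and 21 of 27 in the small. On 68 of the 75 genes the 3 HFM arrays all lay below the 3 GM arrays, as on 43% of all genes. On the probe set used for each gene, MRPL2, MRPL43 and MRPS5 had the only estimates above 0, at 0.20, 0.05 and 0.10, and none of these was called by limma. HFM at 24 hours also had the higher ACTB 3' to 5' value given above, and its part in the loss was not tested. Every array was also centred on its own median over tested genes, which moved the median of all genes by 0.18. Then 48 of the 75 were lower and 6 higher, against 26.2% and 37% of all genes. The median change of the 75 was then -0.19, against 0.10 over all genes.

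**Figure D1:**
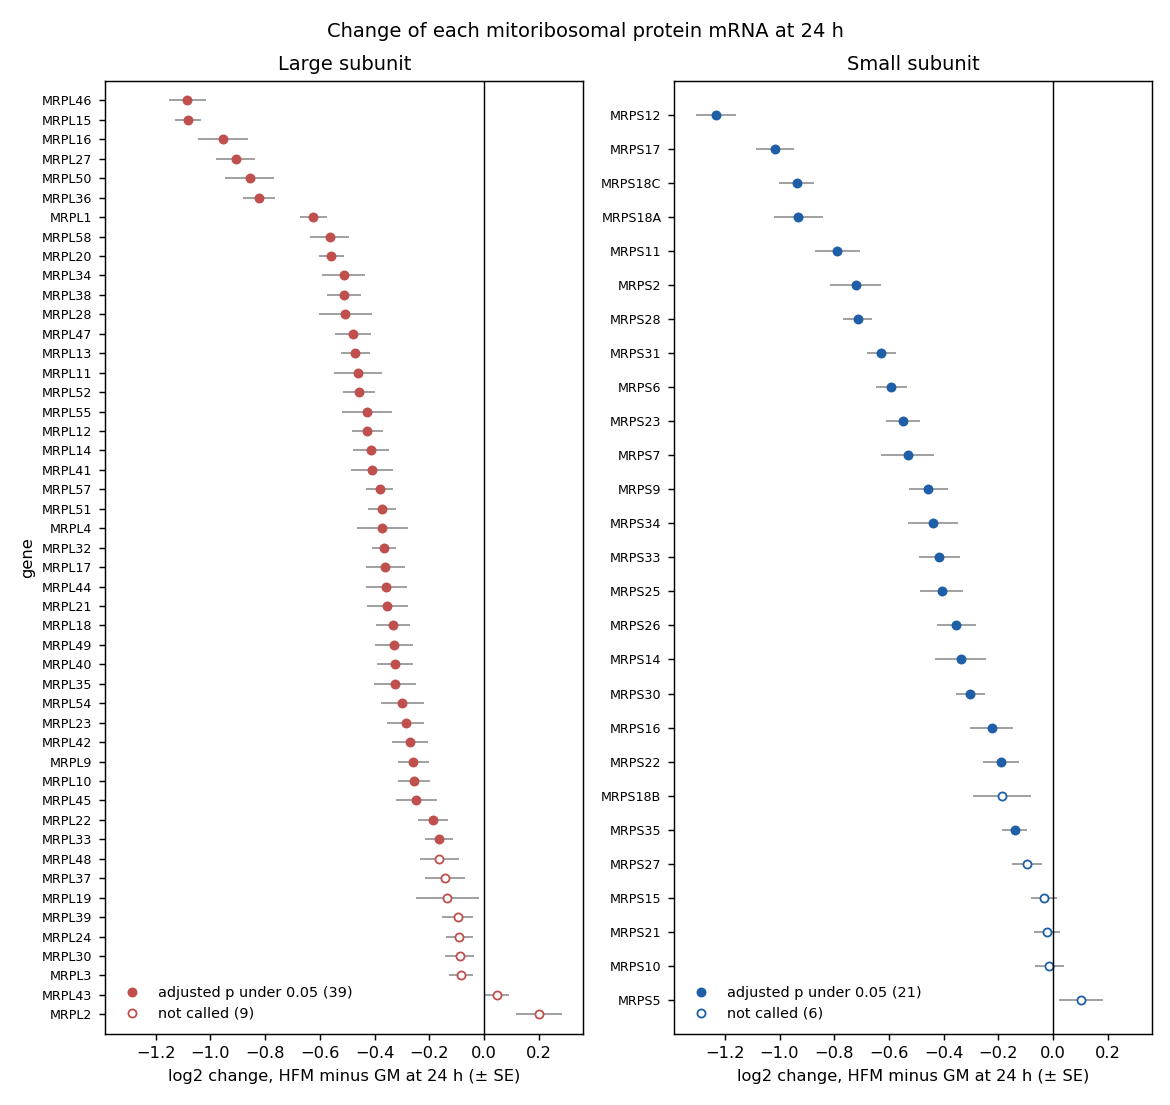
Change of each of the 75 mRNAs at 24 hours on the log2 scale (HFM minus GM, x axis), one row per gene, with points for the estimate, bars for its SE (n = 3 arrays per group) and filled points for genes called. Falls run down to -1.23 for MRPS12, and the 3 estimates above 0 are not called.

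The deepest fall was that of MRPS12, the homologue of bacterial S12 at the decoding centre. Its signal was 9.37, 9.36 and 9.32 on the HFM arrays at 24 hours, against 10.68, 10.62 and 10.45 on the GM arrays. The HFM arrays were below all GM arrays, and the change was -1.23 ± 0.07 (SE, limma adjusted p = 4.89e-08), a 2.35-fold loss. MRPS12 and 3 other genes of the 75 fell at least 2-fold, a share near the 5.2% of all genes. MRPL46, a mitochondria-specific protein of the central protuberance of the large subunit, had 7.35, 7.29 and 7.28 in HFM, against 8.45, 8.42 and 8.31 in GM, a change of -1.08 ± 0.07. MRPL15, homologue of bacterial L15, had 10.23, 10.21 and 10.13 in HFM, against 11.26, 11.26 and 11.29 in GM, a change of -1.08 ± 0.05. MRPS17, homologue of the early-binding bacterial protein S17, had 8.92, 8.89 and 8.89 in HFM, against 9.97, 9.93 and 9.84 in GM, a change of -1.02 ± 0.07. In all 4 genes every HFM array lay below every GM array. Next came MRPL16 at -0.95 and MRPS18C at -0.94, while the smallest called fall was that of MRPS35 at -0.14.

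The large subunit genes with a known role described here fell at 24 hours by unequal amounts, except MRPL3. MRPL12 forms the stalk that recruits translation factors and had 10.02, 10.07 and 10.00 in HFM, against 10.47, 10.46 and 10.43 in GM, a change of -0.43 ± 0.06 (SE, limma adjusted p = 3.39e-05). MRPL10 and MRPL11, which form the base of the stalk, changed by -0.25 and -0.46. MRPL45, which lies near the tunnel exit at the inner membrane, changed by -0.25, and MRPL44, a protein with a ribonuclease III fold that is mutated in a cardiomyopathy, by -0.36. MRPL32 is cut to its mature form by the m-AAA protease and fell by 0.37, with 10.46, 10.42 and 10.43 in HFM against 10.77, 10.81 and 10.83 in GM. MRPL58, also called ICT1, a peptidyl-tRNA hydrolase that frees stalled ribosomes, had 9.22 on each HFM array and 9.83, 9.79 and 9.73 in GM, a change of -0.56. MRPL27, whose bacterial counterpart reaches the peptidyl transferase centre, changed by -0.91. MRPL3, a core protein near that centre with the highest signal of the set, was not called. Its signal was 11.62, 11.68 and 11.62 in HFM and 11.69, 11.70 and 11.77 in GM, a change of -0.08 ± 0.04 (limma adjusted p = 0.125).

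In the small subunit, MRPS7, a protein of the head, changed by -0.53 at 24 hours, with 9.55, 9.39 and 9.48 in HFM against 10.09, 10.03 and 9.89 in GM. MRPS34 and MRPS22, mitochondria-specific proteins mutated in inherited respiratory chain deficiency, changed by -0.44 and -0.19. The groups did not overlap for MRPS7 or MRPS34, and HFM at 10.17, 9.98 and 10.09 lay below GM at 10.29, 10.25 and 10.28 for MRPS22. MRPS15 and MRPS18B, with high signals, were not called, at -0.03 and -0.18. Genes named after bacterial proteins (MRPL numbers up to 36 and MRPS numbers up to 21) had 34 of 44 lower (77.3%). The mitochondria-specific genes with higher numbers had 26 of 31 lower (83.9%), and of all genes tested 37.5% were lower.

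MRPS18A, MRPS18B and MRPS18C all descend from bacterial S18 and are given side by side. MRPS18C had 8.54, 8.48 and 8.61 in HFM at 24 hours, against 9.51, 9.48 and 9.46 in GM, without overlap and with a change of -0.94 ± 0.06. MRPS18A had 7.69, 7.60 and 7.81 in HFM, against 8.70, 8.65 and 8.54 in GM, also without overlap and with a change of -0.93 ± 0.09. MRPS18B had 10.67, 10.65 and 10.76 in HFM, against 10.76, 10.89 and 10.98 in GM, a change of -0.18 ± 0.11 that was not called (limma adjusted p = 0.16). A second, dimmer probe set of MRPS18B had 8.99 ± 0.07 in HFM and 9.20 ± 0.05 in GM (SD, n = 3 each). A difference between the changes of these 3 genes was not tested. Despite their symbols, MRPS18A and MRPS30 sit in the large subunit of the mammalian mitoribosome, and MRPS30 changed by -0.30 at 24 hours. The protein once called MRPS36 is now KGD4, a component of the alpha-ketoglutarate dehydrogenase complex, and is not counted among the 75. It also differed, with 9.30, 9.40 and 9.32 in HFM against 9.74, 9.72 and 9.72 in GM, a change of -0.39 ± 0.05.

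At 12 hours the set was split. Of the 75 genes 37 fell (49.3%), 15 rose (20%) and 23 were not called, against 33% lower and 28.9% higher over all genes, and the median was -0.14 against -0.07. In the large subunit 27 were lower and 10 higher, and in the small subunit 10 were lower and 5 higher. The arrays did not overlap, with HFM lower, on 35 genes, as on 33.2% of all genes. Both alternatives on the array that stands apart bear on this count. Without HFM replicate 1, 43 were lower and 15 higher (38.3% and 30.2% of all genes). With a term for the class of the hybridisation controls, where that replicate is the only HFM array compared with GM, 24 were lower and 24 higher (27.2% and 33.6% of all genes).

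The largest falls at 12 hours were in MRPS18A, MRPL12, MRPL55, MRPS2 and MRPL54. MRPS18A had 9.09, 8.72 and 8.78 in HFM, against 9.56, 9.56 and 9.54 in GM, a change of -0.69 ± 0.09 (SE, limma adjusted p = 5.47e-05). The stalk protein MRPL12 had 10.80, 10.60 and 10.64 in HFM, against 11.31, 11.31 and 11.35 in GM, a change of -0.64 ± 0.06. In both genes the first HFM array was the closest to GM, and no HFM array reached a GM array. MRPL55, a mitochondria-specific protein, changed by -0.60, MRPS2, homologue of bacterial S2, by -0.58, and MRPL54 by -0.58. The largest rises were in MRPL39, MRPL48, MRPL13, MRPS31 and MRPL42. MRPL39, a protein with a domain like that of threonyl-tRNA synthetase, had 10.27, 10.10 and 10.08 in HFM, against 9.46, 9.46 and 9.54 in GM, a change of 0.66 ± 0.06 (SE, limma adjusted p = 2.14e-06). MRPL48 rose by 0.44, MRPL13 by 0.44, MRPS31 by 0.42 and MRPL42 by 0.40, and MRPL3 by 0.17. KGD4 was higher too, at 0.42.

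Other proteins with a named role passed the test at 12 hours. MRPL10 changed by -0.21, MRPL11 by -0.32, MRPL27 by -0.20, MRPL32 by -0.11, MRPL58 by -0.31, MRPS34 by -0.47 and MRPS22 by 0.33. MRPL44, MRPL45 and MRPS7 had values of 0.07, 0.04 and -0.15 and were not called. MRPS12, the gene with the deepest fall at 24 hours, had 10.95, 10.75 and 10.73 in HFM at 12 hours, against 11.19, 11.23 and 11.29 in GM, a change of -0.43 ± 0.07.

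**Figure D2:**
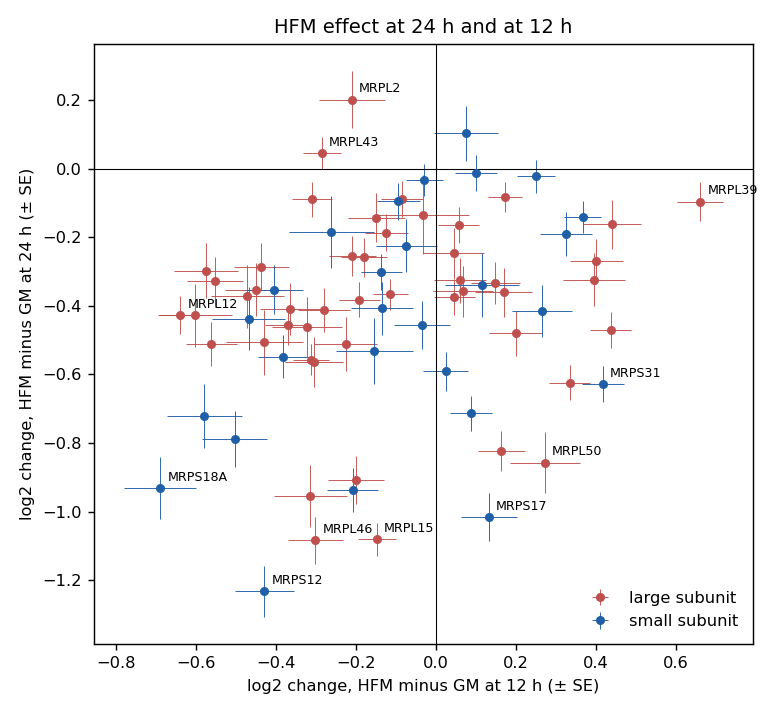
HFM minus GM change of each gene at 24 hours (y axis) and at 12 hours (x axis) on the log2 scale, with SE bars (n = 3 arrays per group) and colours for the subunits. All but 3 estimates at 24 hours lie below 0, and those at 12 hours run from -0.69 (MRPS18A) to 0.66 (MRPL39).

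The HFM change was more negative at 24 than at 12 hours for 38 of the 75 genes by the test of the difference itself, and less negative or higher for 4, against 33.4% and 19.4% of all genes. The median difference was -0.25, against -0.04 over all genes. In 11 genes HFM was lower at 24 and higher at 12 hours, with both called, against 9.19% of all genes. They were MRPL1, MRPL13, MRPL35, MRPL36, MRPL42, MRPL47, MRPL50, MRPS22, MRPS31, MRPS33 and MRPS35. Another 33 were lower at both times, against 16.2% of all genes. Without HFM replicate 1 at 12 hours, 42 differences were lower and 11 higher (36.2% and 26% of all genes). After centring, 29 were lower and 19 higher (23.9% and 38.6% of all genes), with a median of -0.05 (all genes 0.16).

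MRPS17 had the largest difference between times, -1.15 ± 0.10 (SE, limma adjusted p = 2.05e-06). At 12 hours it had 10.24, 9.99 and 9.97 in HFM, against 9.94, 9.94 and 9.92 in GM, which was not called. MRPL50, a mitochondria-specific protein, had 7.69, 7.76 and 7.88 in HFM at 24 hours, against 8.53, 8.63 and 8.74 in GM. At 12 hours its HFM arrays had 8.14, 8.35 and 8.48, against 8.10, 8.06 and 7.99 in GM. The groups did not overlap at either time and stood in opposite order, with a difference of -1.13 ± 0.12. A second, dimmer probe set of MRPL50 had 6.86 ± 0.25 in HFM and 7.84 ± 0.27 in GM at 24 hours (SD). At 12 hours it had 7.15 ± 0.87 in HFM and 7.25 ± 0.15 in GM, so the rise was not seen there. MRPS31 had 8.47, 8.43 and 8.48 in HFM against 9.08, 9.03 and 9.15 in GM at 24 hours, and 9.14, 9.04 and 9.01 in HFM against 8.64, 8.67 and 8.62 in GM at 12 hours. It too was without overlap and in opposite order, with a difference of -1.05 ± 0.07. MRPL36, homologue of the small bacterial protein L36, followed at -0.99 and MRPL1 at -0.96. The 4 positive differences were those of MRPL2 at 0.41 (0.17 and not called on its second probe set), MRPL43 at 0.33, MRPL24 at 0.22 and MRPL12 at 0.21.

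The 2 times were also compared within each medium. In HFM, 66 of the 75 genes were lower at 24 than at 12 hours and 0 higher (limma, 1 at an unadjusted p under 0.05), against 43.1% and 20.1% of all genes, with a median of -0.60 (all genes -0.12). After centring, 52 were lower and 6 higher (28.9% and 39.1% of all genes), with a median of -0.38 (all genes 0.10). The ACTB 3' to 5' value in HFM, 1.58 at 24 hours and 0.84 at 12 hours, differed between the same arrays, and its part was not tested. In GM, 43 were lower and 17 higher, against 40.5% and 29.4% of all genes, with a median of -0.24 (all genes -0.12). All 3 GM arrays at 12 hours are in the higher class of the hybridisation controls and none at 24 hours is. With the class term, estimated from HFM at 12 hours alone, 29 were lower and 22 higher in GM (26.5% and 29.7% of all genes), with a median of -0.03, equal to that of all genes at -0.03. These comparisons use the same arrays as those between media, so a deviation of one group enters more than one of them. At least 2-fold lower over time in HFM were 5 of the 75 genes, a share not far from the 5.3% of all genes. They were MRPS12 at -1.46, MRPL46 at -1.27, MRPS17 at -1.17, MRPS18A at -1.16 and MRPL27 at -1.13. In GM the largest falls were MRPL54 at -1.01, MRPS18A at -0.92, MRPL55 at -0.90, MRPL12 at -0.87 and MRPL23, a tunnel exit protein, at -0.77. The largest rises in GM were MRPL50 at 0.59, MRPL42 at 0.46, MRPS31 at 0.44, MRPL39 at 0.43 and MRPL13 at 0.42. All 5 of these were also higher in HFM than in GM at 12 hours, a comparison that uses the same GM arrays.

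**Figure D3:**
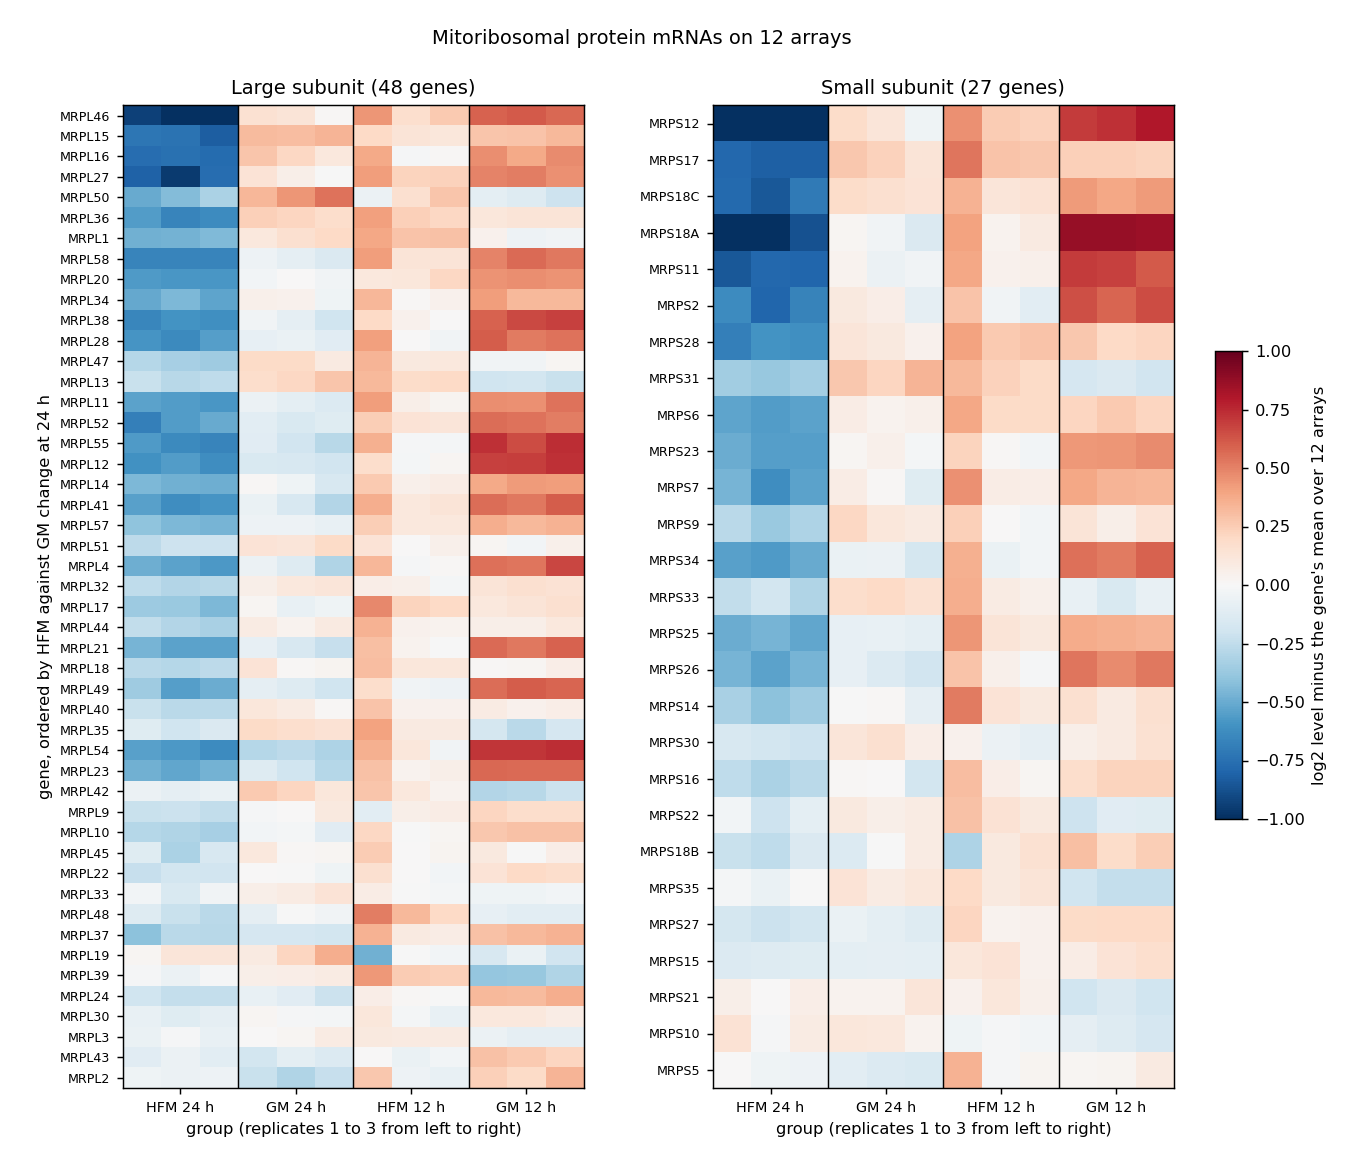
Log2 signal of each gene minus its mean over the 12 arrays (colour, blue lower, red higher), large subunit left and small subunit right, arrays in columns by group and genes in rows ordered by their change at 24 hours. HFM at 24 hours holds the lowest group mean for 63 of the 75 genes, and replicate 1 of HFM at 12 hours (first column of its group) differs from the other 2.

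The 4 group means of a gene place HFM at 24 hours lowest for 63 of the 75 genes (84%), against 44.4% of all genes tested. The other 12 were lowest in GM at 12 hours (MRPL3, MRPL35, MRPL39, MRPL42, MRPS10, MRPS21, MRPS22 and MRPS35), in GM at 24 hours (MRPL2, MRPL43 and MRPS5) or in HFM at 12 hours (MRPL19). GM at 12 hours was highest for 43 genes (57.3%), against 46.9% of all genes. MRPL2, with the dimmest probe set of the 75, had 6.67, 6.65 and 6.66 in HFM at 24 hours, against 6.49, 6.41 and 6.48 in GM, so that all HFM arrays lay above all GM arrays, and its change of 0.20 was not called (limma adjusted p = 0.0556). A second probe set of MRPL2, nearly as bright, stood in the opposite order without overlap, with 6.05, 6.01 and 6.09 in HFM against 6.42, 6.37 and 6.25 in GM, a change of -0.30 (limma over all probe sets, adjusted p = 0.00445).

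Averaged per array, both subunits were lower in HFM than in GM at 24 hours. The mean of the 48 large subunit genes was 9.36 ± 0.01 in HFM and 9.75 ± 0.02 in GM at 24 hours (SD, n = 3 arrays each). That of the 27 small subunit genes was 9.33 ± 0.03 in HFM and 9.78 ± 0.03 in GM. At 12 hours the large subunit had 9.88 ± 0.10 in HFM and 10.00 ± 0.01 in GM, and the small subunit 9.90 ± 0.12 in HFM and 9.99 ± 0.01 in GM. The wide spread of HFM at 12 hours came from replicate 1, whose subunit means lay beside those of GM. The mean change of the large subunit minus that of the small was 0.06 at 24 hours, -0.03 at 12 hours, 0.04 over time in HFM, -0.04 over time in GM and 0.08 for the difference between times. With MRPS18A and MRPS30 counted in the large subunit these values were 0.03, -0.07, 0.03, -0.07 and 0.10. Per array at 24 hours, the large minus the small subunit mean was 0.019, 0.043 and 0.0089 in HFM, against -0.040, -0.037 and -0.020 in GM. These arrays did not overlap, and the difference of 0.06 was small beside the 2 subunits' own mean changes of -0.39 and -0.45. Without the probe set types prone to cross-hybridisation, which left 42 genes, it was 0.185.

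**Figure D4:**
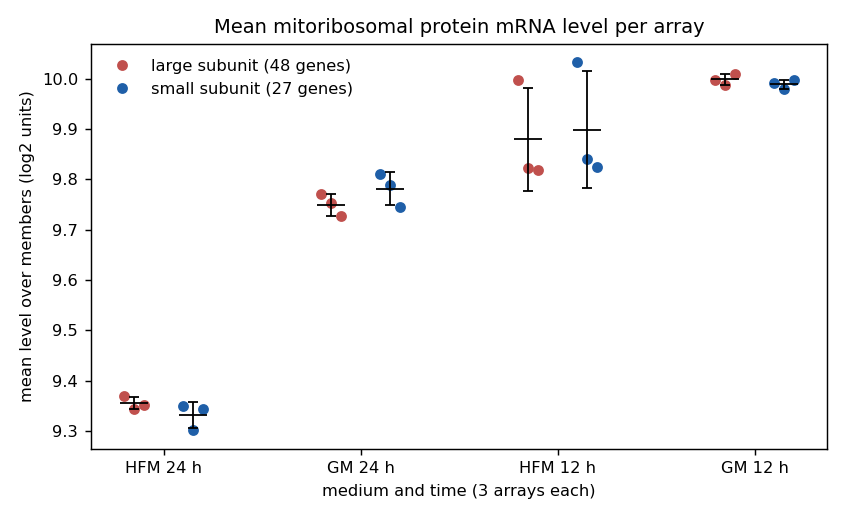
Mean log2 signal over the genes of each subunit on every array (points), with the group mean and SD (bars, n = 3). Both subunits lie at 9.30 to 9.37 in HFM at 24 hours, below every other array, and replicate 1 of HFM at 12 hours lies with GM at 12 hours.

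All 75 genes were at log2 4 or more on all 12 arrays, so the filter on low values removed none, and the lowest single value was 6.31, for MRPL38 in HFM at 24 hours. Signals of different probe sets are not compared here as amounts of RNA. Mean signals ran from 6.71 (MRPL2), 6.96 (MRPL38) and 8.20 (MRPL50) to 11.06 (MRPL57), 11.57 (MRPL51) and 11.69 (MRPL3) in the large subunit. In the small subunit they ran from 8.26 (MRPS9), 8.60 (MRPS2) and 8.69 (MRPS18A) to 10.83 (MRPS23), 10.90 (MRPS18B) and 11.34 (MRPS15). Among the 3 brightest and 3 dimmest of each subunit, MRPL51 changed by -0.37 at 24 hours, MRPL57 by -0.38, MRPS23 by -0.55, MRPL38 by -0.51 and MRPS9 by -0.46.

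The 75 genes had 140 probe sets, and 31 genes had several that passed the filter. Over the 54 additional probe sets 23 were lower and 6 higher in HFM at 24 hours, against 35.6% and 23.2% of all 24649 probe sets tested. Their share of lower calls thus lay nearer to that of all probe sets than to the 80% on the probe sets used for the genes. By the rule of choice the additional probe sets are the dimmer ones of their genes, and the part of signal level in this share was not tested. For MRPL30, MRPS25 and MRPS30, 2 probe sets were called in opposite directions at 24 hours. MRPS25 had 8.66, 8.69 and 8.63 in HFM against 9.07, 9.08 and 9.05 in GM on its main probe set, a change of -0.41. A dimmer one had 7.11, 7.14 and 7.14 in HFM against 5.99, 6.11 and 6.08 in GM, a change of 1.07, and its groups did not overlap either. MRPS30 changed by -0.30 on its main probe set and by 0.54 on another, and MRPL30 was not called on its main one (-0.09), with others at 0.22, -0.73 and -1.13. At 12 hours MRPS25 and MRPS30 disagreed, over time in HFM MRPL30, MRPL39, MRPL42 and MRPS25, and over time in GM MRPS25 and MRPS5.

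The widest disagreement at 24 hours was in MRPL39. Its main probe set was not called at 24 hours, with 9.83, 9.78 and 9.83 in HFM against 9.90, 9.91 and 9.93 in GM. A second probe set annotated to the gene had 7.32, 7.45 and 7.61 in HFM, against 3.02, 3.19 and 3.43 in GM (limma over all probe sets, adjusted p = 4.86e-09). Since all GM arrays were below log2 4, the change is given as a bound, at least 3.46 over that level. That probe set had 3.10, 3.52 and 3.59 in HFM and 2.01, 2.17 and 2.86 in GM at 12 hours, so only the HFM arrays at 24 hours were above log2 4. A dim probe set of MRPS5 behaved alike in direction, with 5.86, 5.66 and 5.67 in HFM against 4.16, 4.19 and 4.23 in GM at 24 hours, a change of 1.54, while its main probe set was not called. Which transcripts these dim probe sets measure was not tested.

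**Figure D5:**
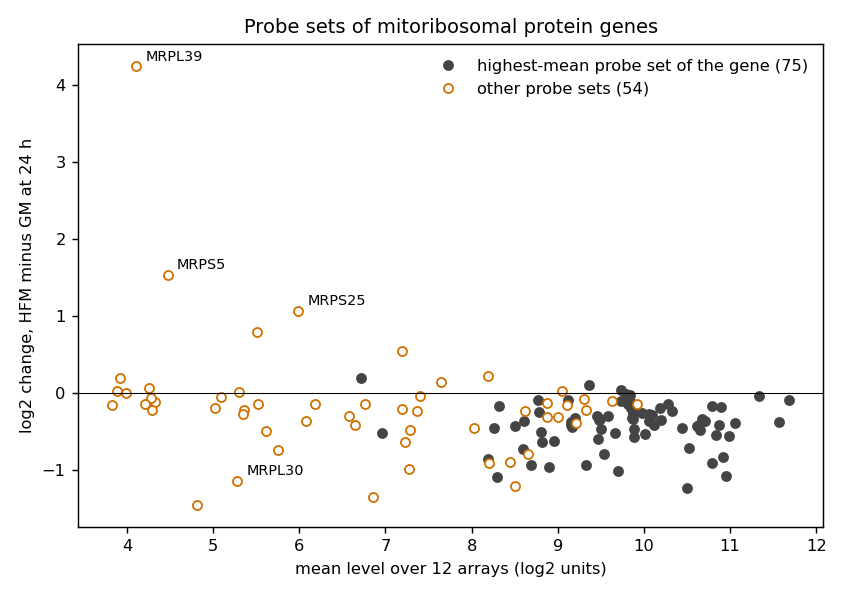
Change at 24 hours (HFM minus GM, log2, y axis) against the mean signal over 12 arrays (log2, x axis) for the 129 tested probe sets of the 75 genes, filled for the main probe set of a gene and open for the others. The main probe sets lie between -1.23 and 0.20, and the open points spread further at low signal, up to a fitted 4.25 for MRPL39, whose GM arrays lie below log2 4 so that only the bound of 3.46 is read.

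The mitoribosome has proteins under other names, and 3 of the 4 measured fell at 24 hours. CHCHD1 changed by -0.64, with 10.16, 10.12 and 10.21 in HFM against 10.89, 10.75 and 10.77 in GM, GADD45GIP1 by -0.35, and DAP3, a GTP-binding protein of the small subunit, by -0.24 on its main probe set, with another called the opposite way. At 12 hours PTCD3 was higher at 0.51 and GADD45GIP1 lower at -0.44. Among 30 genes of mitoribosome assembly and rRNA modification, 19 fell and 2 rose at 24 hours (63.3% and 6.67%, against 37.5% and 20.6% of all genes), with a median of -0.36 (all genes -0.08). The RNA helicase DDX28, which helps to assemble the large subunit, had 5.23, 5.56 and 5.70 in HFM, against 7.62, 7.67 and 7.61 in GM, a change of -2.14 ± 0.09 (SE, limma adjusted p = 3.53e-09), with 1 of its 4 probe sets called the opposite way. MRM2, a methyltransferase of the large subunit rRNA, changed by -1.65, and MTERF4, which brings the rRNA methyltransferase NSUN4 to the large subunit, by -1.55. At 12 hours 16 of the 30 fell and 4 rose (53.3% and 13.3%, against 33% and 28.9% of all genes), with DDX28 at -0.97, MRM2 at -0.69 and METTL15, a methyltransferase of the small subunit rRNA, at 0.96 with a probe set called the opposite way.

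Most factors that work with the mitoribosome fell at 24 hours too. Of 12 translation factors 9 were lower (75%) and 1 higher (8.33%), against 37.5% and 20.6% of all genes. MTRFR, which takes part in rescue of stalled mitoribosomes, had 5.86, 5.89 and 6.19 in HFM, against 8.14, 8.35 and 8.43 in GM, a change of -2.32 ± 0.10 (SE, limma adjusted p = 3.47e-09). Its partner MTRES1 changed by -1.73, and the release factor MTRF1L by -1.02 with a probe set called the opposite way. At 12 hours 3 were lower (25%) and 5 higher (41.7%), against 33% and 28.9% of all genes, with the initiation factors MTIF3 and MTIF2 at 0.60 and 0.52 and TACO1, a translational activator, at -0.52. Of 12 genes of mitochondrial DNA transcription and maintenance, 9 were lower (75%) and 3 higher (25%) at 24 hours, against the same 37.5% and 20.6%, with the helicase TWNK at -1.37, the transcription elongation factor TEFM at -0.87 with a probe set called the opposite way, and MTERF1 at -0.63. At 12 hours 4 were lower and 4 higher (33.3% each), close to the 33% and 28.9% of all genes, with TWNK at -0.60, POLG2 at 0.52 and LRPPRC at 0.48.

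Of 8 nuclear regulators of mitochondrial genes, 4 fell (50%) and 2 rose (25%) at 24 hours, not far from the 37.5% and 20.6% of all genes. NRF1 had 4.84, 4.79 and 5.04 in HFM, against 6.44, 6.48 and 6.51 in GM, a change of -1.58 ± 0.09 (SE, limma adjusted p = 3.28e-08), and 4 of its 5 probe sets were called lower and 0 higher. The coactivator PPARGC1B changed by -1.35, and GABPB1, the partner subunit of the ETS protein GABPA, by -0.96. GABPA itself was higher at 0.47, with a second probe set called the opposite way, and the growth regulator MYC was higher at 0.70. YY1 was not called on its main probe set, at -0.04, while 2 of its 6 probe sets were called lower and 0 higher. At 12 hours 5 of the 6 YY1 probe sets were called higher and 0 lower. At 12 hours 4 of the 8 were lower and 2 higher, against 33% and 28.9% of all genes, with GABPA at 0.98, the nuclear receptor ESRRA at -0.51 and GABPB1 at 0.34. Whether these mRNA changes bear on the mitoribosomal genes was not tested.

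Over time, counts in the same lists are read against 43.1% lower and 20.1% higher of all genes in HFM, and 40.5% and 29.4% in GM. In HFM, 24 of the 30 assembly genes were lower at 24 than at 12 hours (80%) and 2 higher, led by DDX28 at -1.95, MTERF4 at -1.53 and MRM2 at -1.50. Of the translation factors 8 were lower (66.7%) and 2 higher, with MTRFR at -2.24, MTRES1 at -1.54 and TACO1 at -1.41. Of the mitochondrial DNA genes 9 were lower (75%) and 1 higher, with TWNK at -1.22, the mitochondrial RNA polymerase POLRMT at -0.65 and TEFM at -0.60, and of the regulators 4 were lower (50%) and 2 higher (25%), near the share of all genes, with NRF1 at -1.69, GABPB1 at -1.13 and PPARGC1B at -0.93. In GM, 19 assembly genes were lower (63.3%) and 4 higher, led by RPUSD3 at -0.91, MTG1 at -0.87 and TRUB2 at -0.80, whereas 3 translation factors were lower (25%) and 8 higher (66.7%), with TACO1 at -0.95, MTIF3 at 0.70 and MTRF1 at 0.69. Of the mitochondrial DNA genes 5 were lower (41.7%) and 6 higher (50%) in GM, with POLRMT at -0.82, MTERF1 at 0.68 and LRPPRC at 0.64, and of the regulators 3 were lower (37.5%) and 2 higher (25%), near the share of all genes, with GABPA at 1.39, ESRRA at -0.62 and NRF1 at -0.29. NRF1 in both media and TEFM in HFM had a probe set called the opposite way.

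The HFM effect was lower at 24 than at 12 hours for 13 and higher for 2 of the assembly genes (43.3% and 6.67%), against 33.4% and 19.4% of all genes, with TRMT61B at -1.50, MTERF3 at -1.46 and FASTKD2 at -1.26, the last with a probe set called the opposite way. For the translation factors it was lower for 10 (83.3%) and higher for 1, with MTRFR at -2.20, MTRES1 at -1.75 and MTRF1 at -1.15. For the mitochondrial DNA genes it was lower for 8 (66.7%) and higher for 1, with TEFM at -1.07, POLG2 at -1.01 and TWNK at -0.77. For the regulators it was lower for 4 (50%) and higher for 2 (25%), with NRF1 at -1.40, GABPB1 at -1.29 and PPARGC1B at -1.10. KGD4 stood at -0.81.

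For comparison, 50 cytosolic ribosomal protein genes, the set most alike in kind, had 1 lower and 1 higher at 24 hours (2% each, against 37.5% and 20.6% of all genes), with changes from -0.12 to 0.17 and a median of -0.01. At 12 hours 7 were lower and 6 higher (14% and 12%), and over time 9 were lower and 1 higher in HFM (18% and 2%) and 13 were lower and 6 higher in GM (26% and 12%). The 75 mitoribosomal genes stood at 60 lower and 0 higher at 24 hours. The difference between the 2 sets was not tested.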

How the data were processed

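Gene expression was measured on 12 one-colour Affymetrix arrays of 54675 probe sets. The deposited values are log2 signals. Per the submitters' processing notes, the authors made them with GCRMA, a method that removes background, brings arrays to a common distribution and combines the probes of a set. No version is stated in the sources used here. Platform annotation gave 1 symbol to 41097 probe sets, several to 1801 and none to 11777. Where a gene had several probe sets, the one with the highest mean stood for it (19775 genes), and 13130 genes that reached log2 4 on 3 or more arrays were tested. Group means were fitted to all 12 arrays with limma 3.58.1 (lmFit and eBayes, R 4.3.3), with Benjamini-Hochberg adjustment over all genes tested. Errors beside changes are standard errors, and the number of arrays (3 per group) limits the precision.

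The genes, the lists and the rule for naming were chosen with earlier results of these data known, so counts are read against the share of all genes and no p is given for the set. The rule took up to 5 largest rises and falls per comparison among called genes, the 3 highest and 3 lowest signals per subunit, a fixed group with known roles, genes with probe sets called in opposite directions, genes whose HFM effect differed between times, and up to 3 called genes of each other list. Promoters were matched by symbol. The pipeline was tested on simulated data. Replicate numbers were not shown to pair the arrays. Processing was varied in 10 ways, and 2 more were added after seeing the data. Plots were made with matplotlib 3.10.9 and Python 3.11.15.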

Additional observations from a re-analysis of the deposited data

Results flagged for a closer look

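By the test of the difference itself, the HFM effect was lower at 24 than at 12 hours for 38 genes and higher for 4. Of all genes tested, 33.4% were lower and 19.4% higher in this comparison. Each value below is the log2 effect at 24 hours minus that at 12 hours, from limma with Benjamini-Hochberg adjustment, and both effects rest on separate arrays of 3 per group. Replicate 1 of HFM at 12 hours, which stands apart, enters every one of them. Without it 42 were lower and 11 higher (36.2% and 26% of all genes). After centring, 29 were lower and 19 higher (23.9% and 38.6% of all genes).

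In the small subunit 13 differences were lower (48.1%) and 0 higher. They were MRPS17 at -1.15, MRPS31 at -1.05, MRPS12 and MRPS28 at -0.80 each, MRPS18C at -0.73, MRPS33 at -0.68, MRPS6 at -0.62, MRPS22 at -0.52, MRPS35 at -0.51, MRPS14 at -0.45, MRPS9 at -0.42, MRPS7 at -0.38 and MRPS21 at -0.27. MRPS21 differs from the rest in that its change was not called at 24 hours.

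In the large subunit 25 were lower (52.1%). Those below -0.5 were MRPL50 at -1.13, MRPL36 at -0.99, MRPL1 at -0.96, MRPL15 at -0.93, MRPL13 at -0.91, MRPL46 at -0.78, MRPL39 at -0.76, MRPL35 at -0.72, MRPL27 at -0.71, MRPL47 at -0.68, MRPL42 at -0.67, MRPL16 at -0.64, MRPL48 at -0.60 and MRPL17 at -0.53. The smaller ones were MRPL18 at -0.48, MRPL44 and MRPL51 at -0.42 each, MRPL40 at -0.39, MRPL45 and MRPL34 at -0.29 each, MRPL3 at -0.26, MRPL32 and MRPL20 at -0.25 each, MRPL33 at -0.22 and MRPL57 at -0.19. The 4 higher ones, all of the large subunit, were MRPL2 at 0.41, MRPL43 at 0.33, MRPL24 at 0.22 and MRPL12 at 0.21. Of these 4 only MRPL12 was called lower in HFM at 24 hours, and all 4 were lower at 12 hours.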

How the results depend on the processing

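Settings are compared by the genes called lower and higher, of 75, and by the mean change of the large minus that of the small subunit. Without any 1 array, 55 to 66 were lower and 0 to 2 higher at 24 hours, 30 to 43 and 13 to 16 at 12 hours, 65 to 67 and 0 to 1 over time in HFM, 39 to 47 and 13 to 18 over time in GM, and 33 to 42 and 2 to 11 for the difference between times. The 11 was without HFM replicate 1 at 12 hours. The subunit difference was then 0.046 to 0.063 at 24 hours, -0.035 to -0.021 at 12 hours, 0.033 to 0.050 in HFM, -0.048 to -0.038 in GM and 0.075 to 0.092 between times. After leaving out probe set types prone to cross-hybridisation (_s_at, _x_at and _a_at), only 42 of the genes were tested. Then 27 were lower and 2 higher at 24 hours, against 36.6% and 22.1% of all genes in that setting. At 12 hours 19 were lower and 10 higher (30.1% and 31.7% of all genes). Over time 30 were lower and 2 higher in HFM (40.9% and 21.5% of all genes). In GM 22 were lower and 10 higher (36.1% and 31.6% of all genes). Between times 16 were lower and 5 higher (34.4% and 18.8% of all genes). The subunit difference was 0.185 at 24 hours, -0.0077 at 12 hours, 0.146 in HFM and 0.192 between times. With the mean of all probe sets of a gene 3 were higher at 24 hours, 4 in HFM and 11 between times, and the subunit difference was -0.040 at 12 hours and -0.069 in GM. Centring gave 6 higher at 24 hours, 6 in HFM and 19 between times, and repeated quantile normalisation 1, 2 and 8. The class term gave 2 higher at 24 hours, 24 lower and 24 higher at 12 hours, and subunit differences of -0.044 at 12 hours, -0.065 in GM and 0.10 between times. A filter at log2 6 and a fit of only the compared groups each gave 1 higher at 24 hours, and a robust trended eBayes 1 in HFM. With MRPS18A and MRPS30 in the large subunit the difference was 0.034 at 24 hours, -0.066 at 12 hours, -0.069 in GM and 0.0999 between times. With the replicate number as a block 1 gene was higher in HFM and no other count moved by over 1.5 times. Of 18 same-numbered pairs of arrays 7 correlated over 0.1 (-0.17 to 0.42), and 7 of 12 arrays correlated best with their own number.

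Among 2370 recomputed values, 131 kept the direction and lost the call, 26 gained it and 36, of named genes, changed sign. By setting these were the following. With the mean of probe sets MRPS30 had 0.049 and MRPL44 -0.175 at 12 hours, MRPS30 0.032 in HFM and MRPS18B -0.022 between times. With probe set types left out MRPL12 had 0.012 at 24 hours. With centring MRPL3 had 0.095 at 24 hours, MRPS18B 0.031, MRPS30 0.070 and MRPL3 0.076 in HFM, MRPL44 0.0099 and MRPL45 0.010 in GM, and MRPS30 0.037, MRPL10 0.157 and MRPL11 0.064 between times. With quantile normalisation MRPS30 had -0.025 in GM and MRPL10 0.0086 between times. With the class term MRPS7 had 0.103 at 12 hours and 0.022 in GM, MRPL44 0.303 and MRPL45 0.235 in GM, and MRPS34 -0.235 between times. Without 1 array, the range crossed 0 for MRPL44 (-0.036 to 0.122) and MRPL45 (-0.036 to 0.091) at 12 hours, for MRPS30 (-0.0039 to 0.043), MRPL44 (-0.016 to 0.011) and MRPL45 (-0.035 to 0.016) in GM, and for MRPS18B (-0.068 to 0.164), MRPL10 (-0.084 to 0.020) and MRPS34 (-0.046 to 0.164) between times. The cause of these shifts was not tested.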
